A study of Arabidopsis lyrata with 3 samples.

Results

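The strongest SEPALLATA3 (SEP3) windows of Arabidopsis thaliana were set beside those of Arabidopsis lyrata, chromosome by chromosome. The members were chosen by the deposited score, as the 2000 highest windows in each of 3 deposited lists, 6000 of 172904 windows in all. One list holds A. thaliana windows re-analysed by the submitters from 2 earlier ChIP-seq samples of that species. The other 2 lists come from SEP3 chromatin immunoprecipitation of wildtype A. lyrata inflorescences, 1 list per library. Per the labels, the A. lyrata plants carried floral buds of stage 1 to 10 or 11, had 7 to 10 weeks of cold, and bolted at 18 to 22 °C in long days. The cold for replicate 1 and for the input DNA library was given at 8 °C, in days of 16 h light. Replicate 2 was instead kept at 8 °C in the day and 4 °C at night, in days of 12 h light, so that library and cold treatment cannot be told apart. A peptide of the A. thaliana protein served to raise the antibody, which was then used on A. lyrata. The sources used here do not say how the A. thaliana plants were grown, at which stage or in what number.

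SEP3 is a MADS-domain transcription factor that joins with other MADS-domain proteins into complexes that specify floral organs, and it binds CArG boxes in DNA. A. thaliana is a self-fertilising annual with a small genome. A. lyrata is its outcrossing perennial relative, with a larger genome richer in transposable elements and a chromosome set close to the ancestral one. Fusions and rearrangements on the A. thaliana lineage lowered the chromosome number, and comparative maps of the genus give 3 sets of chromosomes that hold corresponding ancestral blocks. Group A pairs A. thaliana chromosome 1 with A. lyrata scaffolds 1 and 2. Group B pairs chromosomes 2 and 3 with scaffolds 3, 4 and 5. Group C pairs chromosomes 4 and 5 with scaffolds 6, 7 and 8. The grouping comes from such maps and was not derived from these files, and no window of one species was matched to a window of the other.

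The score alone chose the members, so scores are used only as ranks within a list. The 2000 windows made up 13.6% of the 14707 windows listed for A. thaliana, 2.13% of the 93693 of A. lyrata replicate 1 and 3.10% of the 64504 of replicate 2. The last window inside and the first outside had the same score in each list, 3.12 in A. thaliana, 4.36 in replicate 1 and 2.78 in replicate 2. Windows of equal score entered by chromosome number and then position, and this touches the group counts. All 42 tied A. thaliana windows that fell outside lay in group C, while all 47 of group A and all 58 of group B fell inside. In replicate 1 the ties left outside numbered 13 in group B and 25 in group C, and in replicate 2 they numbered 25 in group A, 33 in group B and 33 in group C. All 2000 A. thaliana members lay on the 5 chromosomes. In A. lyrata 1991 and 1981 members lay on scaffolds 1 to 8, and the other 9 and 19 lay on scaffold 9, which belongs to no group.

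A. lyrata replicate 2 stood apart most at one place. A run of 47 of its members, each within 10000 bp of the next, spanned 60.0 kb of scaffold 2 from 8752138 to 8812096. Of these 47 windows 2 overlapped a replicate 1 member, 34 overlapped some replicate 1 window of any score, and 13 met none. Replicate 1 listed 48 windows of any score in this span, 2 of them members, and replicate 2 listed 60. The highest replicate 1 score there was 4.47, close to the 4.36 at the limit of its members. The run had a median width of 288 bp, against 623 bp for the other replicate 2 members, a median spacing of 987 bp and a best rank of 105. The largest such run held 5 members in replicate 1 and 6 in A. thaliana. Elsewhere in the list, 8 and 8 replicate 2 members formed 2 runs near the end of scaffold 3, from 24344069 to 24356955 and from 24421153 to 24440634. Values that rest on the scaffold 2 run are given with and without it where both were computed.

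In all 3 lists the strongest windows were most numerous in group C and fewest in group A, which is also the order of length and of all listed windows. Groups A, B and C made up 25.5, 36.2 and 38.2% of the length in A. thaliana and 26.7, 35.2 and 37.1% in A. lyrata. Of all listed windows they held 26.3, 35.3 and 38.4% in A. thaliana. The like shares were 27.4, 34.8 and 37.0% in replicate 1 and 27.9, 34.1 and 37.1% in replicate 2. In A. thaliana 561 windows lay in group A, 665 in group B and 774 in group C, or 28.1% (95% Wilson interval 26.1 to 30.1%), 33.3% (31.2 to 35.3%) and 38.7% (36.6 to 40.9%). In A. lyrata replicate 1 the counts were 539, 690 and 762, with shares of 27.0% (25.1 to 28.9%), 34.5% (32.4 to 36.6%) and 38.1% (36.0 to 40.2%). In replicate 2 they were 575, 655 and 751, with shares of 28.8% (26.8 to 30.8%), 32.8% (30.7 to 34.8%) and 37.6% (35.5 to 39.7%). The intervals of the 3 lists overlapped in every group. They cover counting error over windows taken as independent, and the read depth behind the lists is unknown. Member counts in full 1 Mb bins had a variance of 6.50 times their mean in A. thaliana, 3.15 times in replicate 1 and 3.34 times in replicate 2. The intervals leave out this clustering and are thus too narrow, here and below. Intervals that stand apart therefore do not show a separation beyond it. One A. thaliana list against 2 A. lyrata lists allows no test at a threshold, as the smallest exact permutation p would be 0.333, so the group values are descriptions.

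The A. lyrata share minus the A. thaliana share was -1.10 percentage points in replicate 1 and 0.70 in replicate 2 for group A, so the libraries differed in direction. For group B it was 1.25 and -0.50 points, again in opposite directions. For group C it was -0.60 and -1.15 points. Without the scaffold 2 run, replicate 2 had 528 windows and 27.0% in group A, close to replicate 1. With the order of ties reversed, the A. thaliana shares became 26.0% in group A, 33.3% in group B and 40.8% in group C. Replicate 1 then had 26.2, 34.0 and 39.4% and replicate 2 had 28.6, 32.8 and 37.7%.

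**Figure D1:**
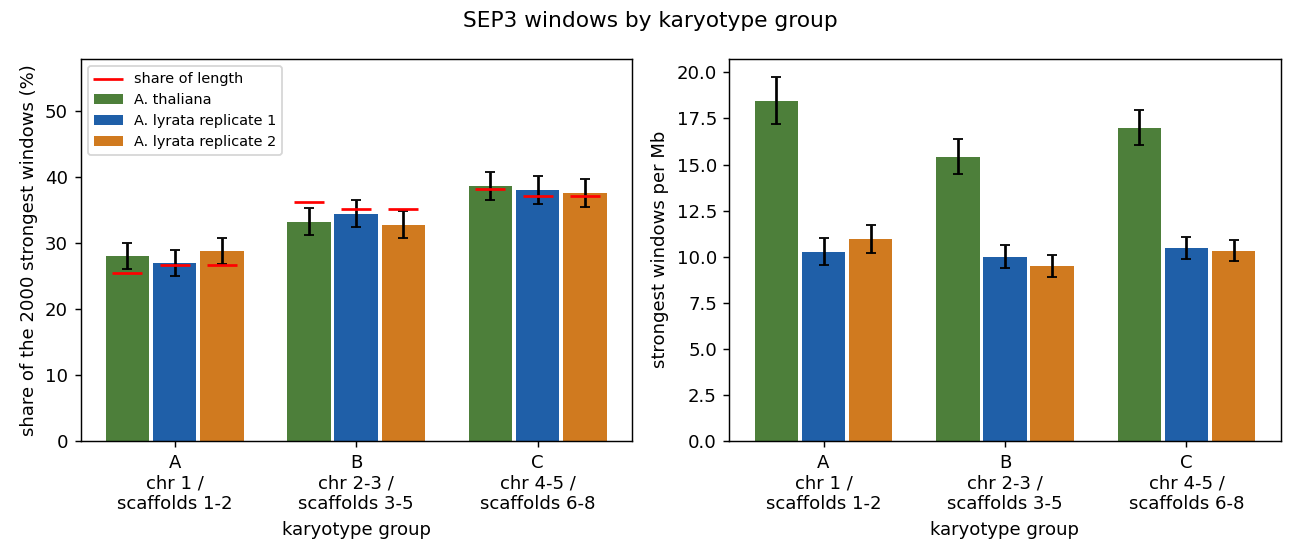
Left, share of the 2000 strongest windows of each list in the 3 karyotype groups, with red marks for each group's share of sequence length. Right, windows per Mb. Bars are counts of windows, and error bars are 95% Wilson intervals over windows. The shares of the 3 lists have overlapping intervals in every group, while the A. thaliana bars on the right, 15.4 to 18.4 windows per Mb, stand above the A. lyrata bars at 9.49 to 11.0.

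Group length was taken as the end of the last window of any score on each chromosome or scaffold. The groups measured 30.4, 43.1 and 45.6 Mb in A. thaliana and 52.4, 69.0 and 72.7 Mb in A. lyrata, a ratio of 1.72 in group A and 1.60 in groups B and C. Since each list was held to 2000 windows, the mean density was fixed by length at 16.8 windows per Mb in A. thaliana and 10.2 in A. lyrata. What the choice of members did not fix was how the density was spread over the groups. A. thaliana had 18.4 windows per Mb (interval 17.2 to 19.8) in group A, 15.4 (14.5 to 16.4) in group B and 16.99 (16.1 to 17.9) in group C. The group A and group B intervals did not overlap, and group A held 1.10 times the windows that its share of length would give, against 0.918 times in group B. This separation rested on the order of ties. With that order reversed, group A had 17.1 windows per Mb (15.8 to 18.4), which overlapped group B, and 1.02 times its share of length, while group C had 17.9 (16.98 to 18.9), above the interval of group B. Replicate 1 was flatter, with 10.3 (9.56 to 11.0), 10.0 (9.40 to 10.6) and 10.5 (9.90 to 11.1) windows per Mb in groups A, B and C. Replicate 2 had 11.0 (10.2 to 11.7), 9.49 (8.91 to 10.1) and 10.3 (9.75 to 10.9), where the intervals of groups A and B again did not overlap. Without the scaffold 2 run its group A density was 10.1.

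All listed windows give the background for these counts. Of the listed A. thaliana windows, 14.5% were members in group A, 12.8% in group B and 13.7% in group C, near the 13.6% of the whole list. The like values were 2.10, 2.12 and 2.20% in replicate 1, against 2.13% of its whole list, and 3.20, 2.98 and 3.14% in replicate 2, against 3.10%. Group B thus had the lowest percentage in 2 of the 3 lists, and the range over groups was narrow in each.

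Density varied more between single scaffolds than between groups. Among the A. thaliana chromosomes it was 18.4 windows per Mb on chromosome 1, 15.3 on chromosome 2, 15.5 on chromosome 3, 17.6 on chromosome 4 and 16.6 on chromosome 5, and only the intervals of chromosome 1 and of chromosomes 2 and 3 did not overlap. With the order of ties reversed, the intervals of all 5 overlapped, with 17.1 (15.8 to 18.4) on chromosome 1 and 18.0 (16.7 to 19.4) on chromosome 5. In A. lyrata, scaffold 8 was the lowest of scaffolds 1 to 8 in both libraries, with 8.54 (7.47 to 9.74) windows per Mb in replicate 1 and 8.32 (7.27 to 9.51) in replicate 2. Scaffolds 6 and 7, which share group C with it, had 11.4 and 11.3 in replicate 1 and 11.2 and 11.3 in replicate 2, with intervals above that of scaffold 8. The clustering of windows is not part of these intervals. Of the windows listed on scaffold 8, 2.05% were members in replicate 1 and 2.90% in replicate 2. The whole lists had 2.13 and 3.10%. Scaffold 8 was also poorer in listed windows. Replicate 1 listed 9543 on its 22.9 Mb, against 12420 on 25.1 Mb of scaffold 6 and 12662 on 24.6 Mb of scaffold 7. Replicate 2 listed 6593, 8589 and 8749 on scaffolds 8, 6 and 7. The near mean value of group C in A. lyrata therefore joins dense and sparse scaffolds. Scaffolds 3 and 4 had 9.61 and 9.43 in replicate 1 and 9.20 and 8.83 in replicate 2, and scaffold 5, the remaining member of group B, had 11.1 and 10.6. Scaffold 1 had 10.4 and 10.0. Scaffold 2 was the exception to this likeness between libraries, with 9.99 windows per Mb in replicate 1 and 12.6 in replicate 2, or 10.1 in replicate 2 without the run.

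**Figure D2:**
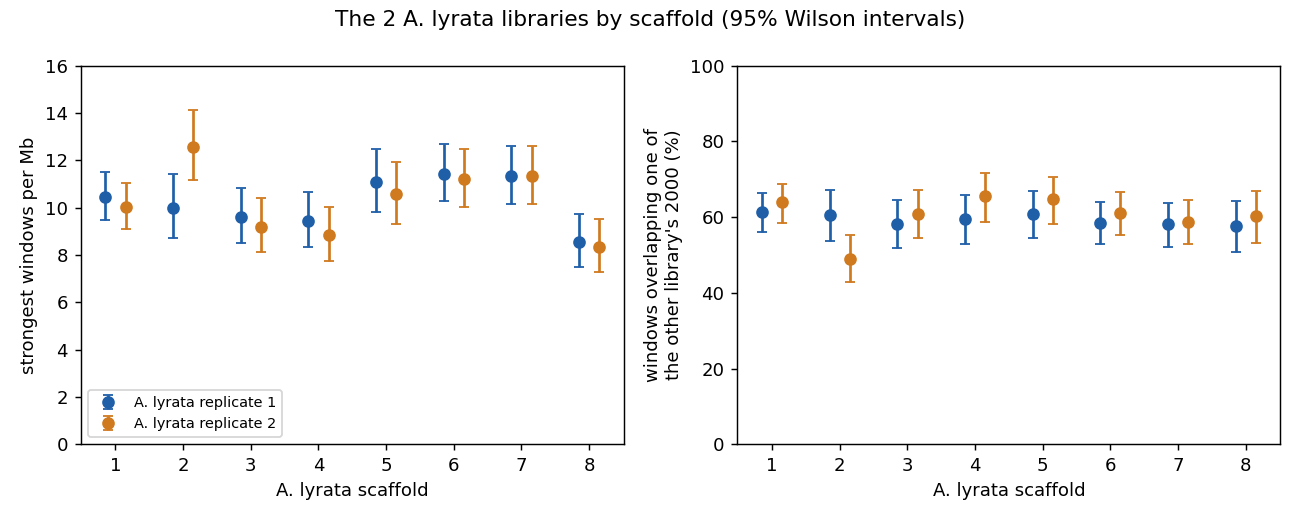
Left, strongest windows per Mb on A. lyrata scaffolds 1 to 8 in the 2 libraries. Right, percentage of each library's members that overlapped a member of the other by at least 1 bp. Points are single libraries and bars 95% Wilson intervals. Scaffold 8 is lowest on the left at 8.54 and 8.32, and scaffold 2 is the place where the libraries part, at 9.99 against 12.6 on the left and 60.6 against 49.0% on the right.

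Members strong in both A. lyrata libraries were spread over the groups in like proportion. Of the replicate 1 members, 61.0% (56.9 to 65.1%) of those in group A, 59.6% (55.9 to 63.2%) in group B and 58.1% (54.6 to 61.6%) in group C overlapped a replicate 2 member by at least 1 bp. Counted from replicate 2, the shares were 57.6% (53.5 to 61.5%), 63.7% (59.9 to 67.3%) and 60.1% (56.5 to 63.5%). By scaffold they ran from 57.7 to 61.3% in replicate 1 over scaffolds 1 to 8. In replicate 2 scaffold 2 had 49.0% (42.8 to 55.2%), and the other 7 had 58.8 to 65.5%. Without its dense run, scaffold 2 had 59.7% (52.7 to 66.3%) and group A 62.3% (58.1 to 66.3%). The like overlap over all listed windows is not given here, so these shares have no background beside them. Both lists may rest on the same input library, which shared windows would then have in common. Among shared windows, ranks in the libraries went together within each group, with Spearman's rho of 0.61 over 329 windows of group A, 0.65 over 411 of group B and 0.64 over 443 of group C. These are descriptions across windows of 2 libraries.

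Counts in 1 Mb bins showed the same likeness and its exceptions. Over the 201 bins of the 9 scaffolds, Spearman's rho between the libraries was 0.75, a description across bins that share a genome and possibly an input. The counts differed by at most 5 windows in 178 bins and by more than 10 in 3. The bin from 8000001 to 9000000 on scaffold 2 held 3 members in replicate 1 and 56 in replicate 2, the densest bin of any list. The last bin of scaffold 3, from 24000001, held 2 and 22. The bin from 6000001 to 7000000 on scaffold 3 went the other way, with 22 in replicate 1 and 11 in replicate 2. The densest replicate 1 bin was on scaffold 2 from 13000001 to 14000000, with 25 members there and 17 in replicate 2. In A. thaliana the densest bins held 36 members, and one of them ran from 14000001 to 15000000 on chromosome 4.

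Along each chromosome the strongest windows thinned out in one inner region, and so did all listed windows. Each sequence was divided into 10 equal segments. The sparsest segment held 3 members on chromosomes 1, 3 and 5, 1 on chromosome 2 and 0 on chromosome 4. It was segment 5 on chromosomes 1 and 5, segment 6 on chromosome 3 and segment 3 on chromosome 4, while segments 2 and 3 tied on chromosome 2. Chromosomes 2 and 4 of A. thaliana are known to have their centromeres near one end, and the other chromosomes have them nearer the middle. In A. lyrata replicate 1 the sparsest segments held 0 to 13 members and in replicate 2 they held 1 to 18. They were the same segment in both libraries on 5 of the 8 scaffolds, segment 4 on scaffolds 2 and 4 and segment 7 on scaffolds 3, 6 and 7. On scaffold 1 it was segment 6 in replicate 1, while segments 6 and 7 tied at 18 members in replicate 2. On scaffolds 5 and 8 they were segment 4 in replicate 1 and segment 5 in replicate 2. All 5 sparsest A. thaliana segments and all 8 of each A. lyrata library were inner ones, not the first or last. With the first taken in a tie, they held 0.5% of the A. thaliana members and 2.35% of its listed windows. On scaffolds 1 to 8 the like shares were 1.66 and 2.25% in replicate 1 and 3.08 and 3.07% in replicate 2. In replicate 2 the members were thus no scarcer there than all listed windows, although the segments were chosen for few members.

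Both the members and all listed windows were more often in the end segments in A. thaliana than in A. lyrata. The first and last segments, 2 of 10 by length, held 28.8% of the A. thaliana members, 23.8% of replicate 1 and 23.9% of replicate 2. Of all listed windows they held 27.1, 22.6 and 23.0% in the same order, so the gap between the species was nearly that of the whole lists. By group the member shares were 27.6, 27.5 and 30.6% in A. thaliana for A, B and C. They were 18.7, 25.2 and 26.4% in replicate 1 and 16.7, 29.0 and 25.6% in replicate 2. In group A the listed windows gave 27.8% in A. thaliana, 21.4% in replicate 1 and 20.8% in replicate 2, so that the species differed there in the whole lists too. In the same order they gave 26.0, 23.3 and 23.8% in group B and 27.7, 23.0 and 23.9% in group C. Without the dense run, which lies in an inner segment, the replicate 2 share of group A was 18.2%. The 29.0% of group B in replicate 2 includes the 2 runs of 8 members near the end of scaffold 3. The last segment of that scaffold held 45 members in replicate 2 and 29 in replicate 1. The share without these 2 runs is not given here. Group A has 2 chromosome ends in A. thaliana and 4 in A. lyrata, and the other groups have 4 and 6. The part of the number of ends in these shares was not tested.

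**Figure D3:**
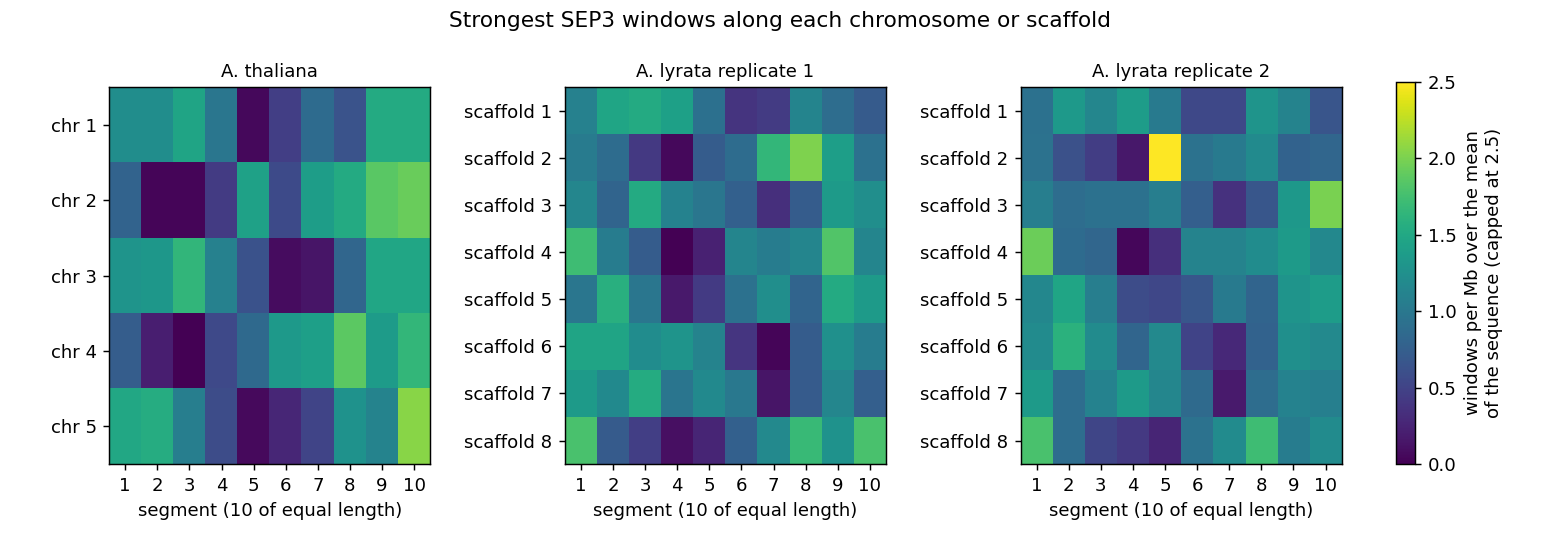
Density of the 2000 strongest windows in 10 equal segments of each sequence (x axis), divided by the mean density of that sequence, for A. thaliana chromosomes and A. lyrata scaffolds 1 to 8 (y axis). Dark cells are sparse and light cells dense, with colours capped at 2.5. The dark inner segments fall at the same place in both A. lyrata libraries on 5 of 8 scaffolds, and the brightest cell is segment 5 of scaffold 2 in replicate 2, with 74 members.

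In A. thaliana, the segments poorest in windows of any score were poorer still in members, and the 2 A. lyrata libraries parted on this. One segment was taken from each sequence, that with the fewest windows of any score, a choice that leaves the scores aside. In A. thaliana these 5 segments held 340 listed windows and 10 members, so 2.94% (1.61 to 5.33%) of their windows were members, against 13.9% of the windows elsewhere. In replicate 1 the 8 segments held 2047 windows and 35 members, or 1.71% (1.23 to 2.37%), an interval that holds the 2.15% found elsewhere. In replicate 2 they held 1545 windows and 65 members, or 4.21% (3.31 to 5.33%), against 3.07% elsewhere. Like the others, these intervals leave out the clustering of windows. The deficit relative to the rest of the list was seen in all 3 A. thaliana groups, at 3.41, 3.54 and 2.16% for A, B and C. In A. lyrata the values were 1.65, 2.06 and 1.42% in replicate 1 and 3.35, 4.58 and 5.15% in replicate 2. These sit beside values elsewhere of 2.12, 2.12 and 2.21% in replicate 1 and 3.19, 2.94 and 3.10% in replicate 2. The lists differ in length, with far more weak windows in A. lyrata, and the part of that difference in these percentages was not tested.

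The longest stretches without a member were of like size in both species, although the A. lyrata sequences are longer. In A. thaliana they measured 2.61 Mb in group A on chromosome 1 from 13279301 to 15885164, 3.31 Mb in group B on chromosome 2 from 2362110 to 5675915, and 2.97 Mb in group C on chromosome 4 from 2663228 to 5634959. These stretches were not blank in the list. They held 41, 97 and 85 windows of lower score, or 15.7, 29.3 and 28.6 per Mb against 123 per Mb in the whole list.

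In A. lyrata the longest member-free stretch of each group lay at the same place in both libraries. In group A it was on scaffold 1, from 18271826 to 21662714 in replicate 1 (3.39 Mb) and from 18433515 to 21497306 in replicate 2 (3.06 Mb). In group B it was on scaffold 4, from 6898573 to 10064383 (3.17 Mb) and from 7236927 to 9463245 (2.23 Mb). In group C it was on scaffold 6, from 14218054 to 17353476 (3.14 Mb) and from 14412600 to 17115800 (2.70 Mb). Windows of lower score were present there at 30.4, 84.7 and 53.9 per Mb in replicate 1, against 478 in its list, and at 7.83, 3.14 and 13.7 per Mb in replicate 2, against 329. A gap in the assembled sequence would also leave such a stretch, and assembly gaps were not measured.

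Stretches longer than 500 kb without a member, chromosome ends included, took up 16.4% of A. thaliana (13 stretches), 16.3% of A. lyrata by replicate 1 (23) and 14.3% by replicate 2 (22). By group they took 11.2, 19.2 and 17.3% in A. thaliana for A, B and C, 15.1, 17.004 and 15.2% in replicate 1 and 13.3, 13.1 and 16.6% in replicate 2. Group A was the least affected in A. thaliana, and the groups were closer to each other in A. lyrata. A limit of 500 kb is a larger multiple of the mean spacing in A. thaliana. With a limit of 5 times the mean spacing of each list, 297, 485 and 487 kb, the totals were 22.8% in A. thaliana, 17.3% in replicate 1 and 14.8% in replicate 2. At that scaled limit group B had 28.7% in A. thaliana against 18.4 and 13.8% in A. lyrata, and group A had 17.4% against 16.0 and 14.3%.

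In bp, and over all gaps with the long ones included, neighbouring summits stood closer together in A. thaliana than in A. lyrata. As each list was held to 2000 windows, the mean spacing was largely set by length. That mean was 59400 bp in A. thaliana, 97084 bp in replicate 1 and 97253 bp in replicate 2. The median distance to the next member summit was 29554 bp in group A, 32967 bp in group B and 27364 bp in group C of A. thaliana. It was 53652, 56896 and 51570 bp in replicate 1 and 50266, 61165 and 52851 bp in replicate 2. Group B had the widest spacing in all 3 lists. The A. lyrata medians were 1.82, 1.73 and 1.88 times those of A. thaliana in replicate 1 and 1.70, 1.86 and 1.93 times in replicate 2, against length ratios of 1.72, 1.60 and 1.60. From the lower to the upper quartile the spacings ran from 9130 to 67744 bp in A. thaliana, from 21063 to 116900 bp in replicate 1 and from 18171 to 124347 bp in replicate 2. Without the scaffold 2 run the replicate 2 median of group A rose from 50266 to 61920 bp, so that group A and group B then had like spacing in that library.

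Divided by the mean spacing of its list, the median was 0.498, 0.555 and 0.461 in A. thaliana for groups A, B and C. It was 0.554, 0.587 and 0.532 in replicate 1 and 0.516, 0.628 and 0.543 in replicate 2. Both libraries were above A. thaliana in each group on this scale, which takes out the difference in genome length. The A. lyrata mean over A. thaliana, on the log2 scale, was 0.10 ± 0.07 (SD, n = 2 libraries) in group A, 0.13 ± 0.07 in group B and 0.22 ± 0.02 in group C. No test was possible with 1 A. thaliana list. The sizes moved with the settings. Among the 500 strongest windows alone the values were -0.05, 0.50 and 0.13, and among the 1000 strongest 0.04, 0.24 and 0.03. With windows within 1000 bp joined the group C value was 0.02, and with ties reversed the group A value was 0.02. Without the scaffold 2 run it was 0.24.

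**Figure D4:**
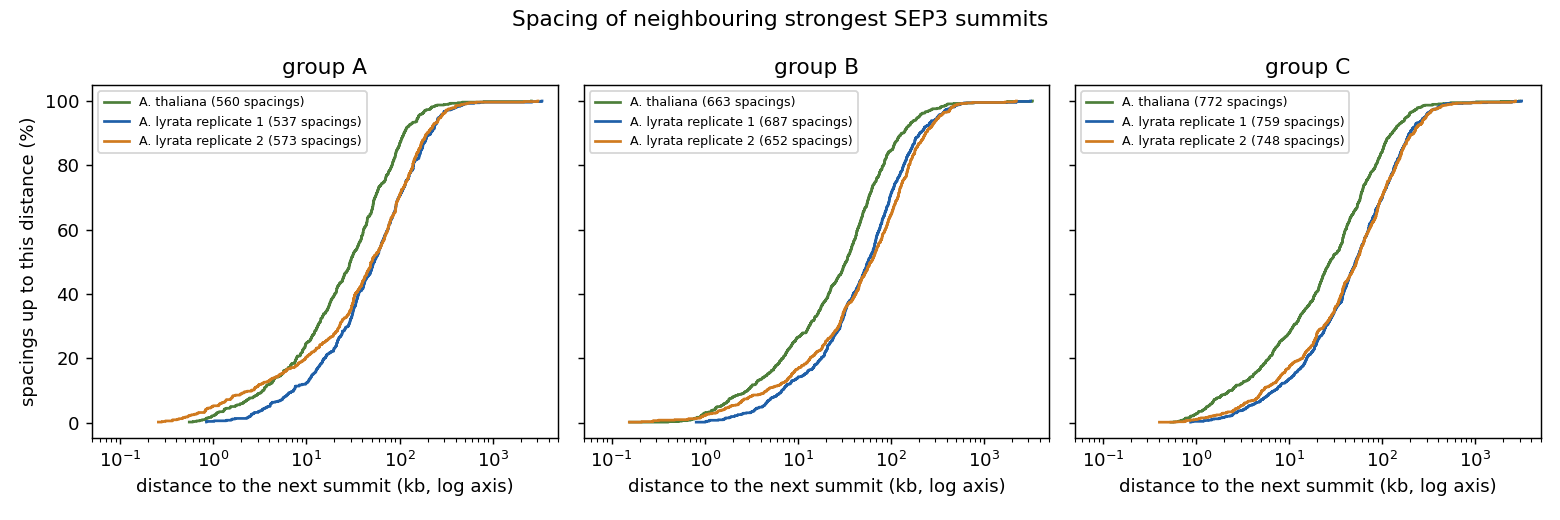
Percentage of spacings between neighbouring member summits (y axis) that were no longer than a given distance in kb (x axis, log scale), for the 3 karyotype groups and the 3 lists. The A. thaliana curve lies to the left of both A. lyrata curves over most of the range, with group medians of 27364 to 32967 bp against 50266 to 61165 bp. Distances are not scaled to the length of the sequences, which is larger in A. lyrata. The replicate 2 curve of group A bends out at under 10 kb, where the run on scaffold 2 lies.

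Close neighbours were counted at a fixed and at a scaled distance. Of the A. thaliana spacings 24.6% in group A, 26.5% in group B and 27.8% in group C were at most 10000 bp, against 12.3, 13.97 and 13.6% in replicate 1 and 20.4, 16.7 and 17.2% in replicate 2. At 0.1 times the mean spacing of each list the shares were 18.1% in A. thaliana, 13.1% in replicate 1 and 17.8% in replicate 2, or 16.2% in replicate 2 without the run. On the scaled distance the A. thaliana value was thus nearer to replicate 2 than replicate 2 was to replicate 1. Spacings of at most 1000 bp numbered 53 in A. thaliana, 6 in replicate 1 and 52 in replicate 2. In replicate 2, 30 of them lay in group A, against 6 in that group without the run. Replicate 1 windows were wider than those of the other lists, and the part of window width in its low number of very close summits was not tested.

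Summits joined at 10000 bp gave 1471 places in A. thaliana, 1733 in replicate 1 and 1638 in replicate 2. Of these, 96, 32 and 49 places held 3 or more members. A join at a fixed 10000 bp takes in more neighbours where members lie denser per Mb, and no scaled join is given. In A. thaliana, group C had the largest percentage of members at places with at least one other, 48.3%, followed by 44.7% in group B and 43.3% in group A. The A. lyrata libraries did not share this order. Groups A, B and C had 23.0, 25.5 and 25.3% in replicate 1 and 31.1, 28.5 and 30.6% in replicate 2. The replicate 2 value of group A includes the scaffold 2 run, which was 8.17% of the members of that group. The largest places held 6 members each in A. thaliana. One lay on chromosome 4 from 17390064 to 17409472, with a best rank of 11 and a median rank of 102, and another lay on chromosome 1 from 28349160 to 28379054, with a best rank of 59. The 5-member place of replicate 1 was on scaffold 7 from 1457203 to 1472837 and was also found in replicate 2, where 7 members ran from 1457172 to 1472843.

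Window width differed by list more than by karyotype group. Median widths were 518, 509 and 510 bp in groups A, B and C of A. thaliana. They were 1263, 1202 and 1160 bp in replicate 1 and 620, 613 and 624 bp in replicate 2. Within a list each group median lay between the quartiles of the other groups, which in A. thaliana ran from 434 to 651, 425 to 631 and 427 to 649 bp. The ratio to A. thaliana was 2.44, 2.36 and 2.27 in replicate 1 and 1.20, 1.20 and 1.22 in replicate 2. The 2 libraries of one species thus differed more in width than replicate 2 and A. thaliana did. Members covered 0.946% of the A. thaliana sequence, 1.51% of the A. lyrata sequence in replicate 1 and 0.718% in replicate 2.

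Among the highest ranks the 3 lists had similar median widths. Windows of rank 1 to 100 had medians of 694 bp in A. thaliana, 773 bp in replicate 1 and 716 bp in replicate 2. Their upper quartiles were less alike, at 842, 1275 and 859 bp in the same order. Lower down the lists parted. The 2000 ranks take in 13.6% of the A. thaliana list, but 2.13% of replicate 1 and 3.10% of replicate 2. Ranks 1001 to 2000 had medians of 453, 1222 and 590 bp in the same order. Width fell with rank in A. thaliana, with Spearman's rho between width and rank number of -0.43, -0.46 and -0.50 in groups A, B and C. The values were near 0 in replicate 1, at 0.01, 0.08 and -0.03, and slightly negative in replicate 2, at -0.09, -0.10 and -0.13. These are descriptions across windows. The sign was the same on all 5 A. thaliana chromosomes, from -0.52 to -0.43. Over scaffolds 1 to 8 it ran from -0.06 to 0.10 in replicate 1 and from -0.19 to 0.01 in replicate 2.

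**Figure D5:**
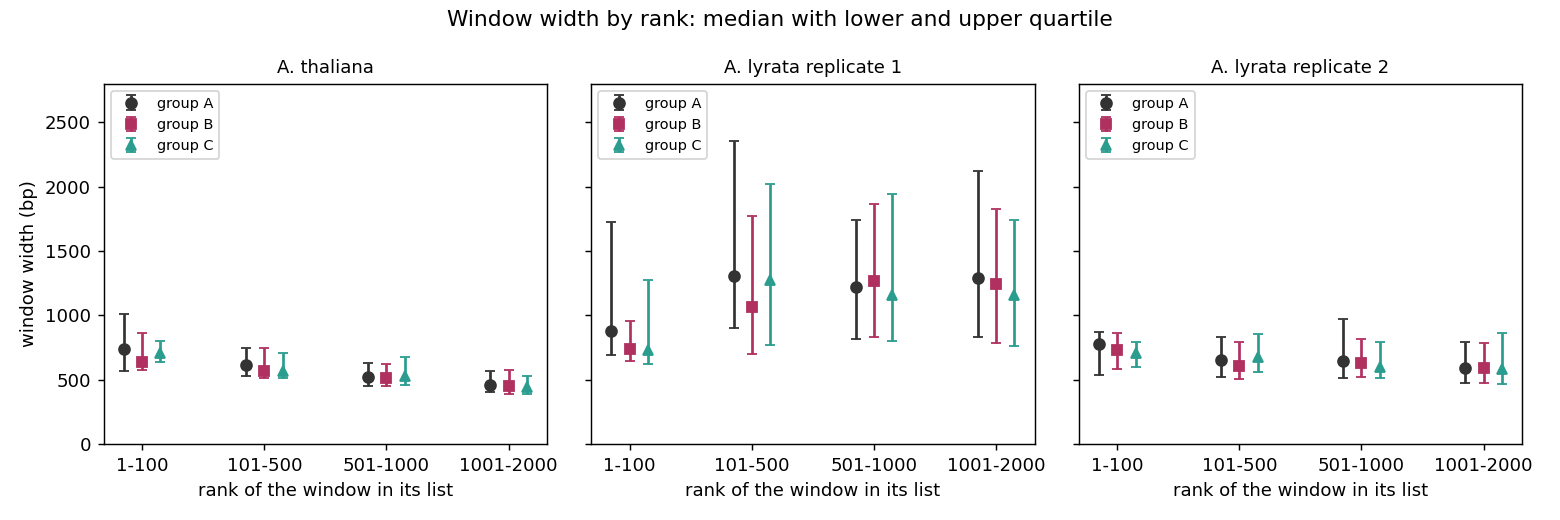
Width in bp of the strongest windows in 4 bands of rank, for each list and karyotype group. Points are medians and bars run from the lower to the upper quartile over windows. At ranks 1 to 100 the medians over all groups are 694, 773 and 716 bp in A. thaliana, replicate 1 and replicate 2, after which they decline to 453 bp in A. thaliana and reach 1222 bp in replicate 1.

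The widest member of each group shows how far the lists parted. In A. thaliana the widest windows were 1715 bp on chromosome 1 from 29765258 to 29766972 (rank 78), 1830 bp on chromosome 3 from 5064043 to 5065872 (rank 1518) and 1855 bp on chromosome 4 from 1499588 to 1501442 (rank 26). In replicate 1 they were 7904 bp on scaffold 2 from 10975648 to 10983551 (rank 182), 6887 bp on scaffold 5 from 18618696 to 18625582 (rank 974) and 5907 bp on scaffold 6 from 5308339 to 5314245 (rank 349). In replicate 2 those 3 places met 7, 5 and 2 listed windows, of which 2, 1 and 1 were members. The widest replicate 2 members were 3655 bp on scaffold 1 from 11944040 to 11947694, 4142 bp on scaffold 5 from 2221195 to 2225336 and 2691 bp on scaffold 6 from 3115485 to 3118175. Each of these 3 met 1 replicate 1 member, of 4626, 4208 and 1931 bp. Counted over all listed replicate 1 windows, they met 1, 1 and 3.

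By rank within a list, group C held the most of the top windows in each, as it did of all listed windows. Its share of all listed windows was 38.4% in A. thaliana, 37.0% in replicate 1 and 37.1% in replicate 2, against 26.3, 27.4 and 27.9% for group A. Of the 100 strongest windows, groups A, B and C held 27, 33 and 40 in A. thaliana, 31, 32 and 37 in replicate 1 and 24, 35 and 41 in replicate 2. Of the 500 strongest, group A held 126 in A. thaliana, or 25.2% (21.6 to 29.2%). It held 153 in replicate 1, or 30.6% (26.7 to 34.8%), and 157 in replicate 2, or 31.4% (27.5 to 35.6%). The intervals overlapped, and without the scaffold 2 run replicate 2 had 136 in group A, or 28.4% of the 479 that were left. Group C held 41.8, 38.2 and 37.6% of the 500 and group B 33.0, 31.2 and 29.4%, in the order A. thaliana, replicate 1, replicate 2. Median ranks were 1013, 1032 and 977.5 in groups A, B and C of A. thaliana, 952, 1014.5 and 1015.5 in replicate 1 and 936, 1065 and 1002 in replicate 2. Group A thus had the best median rank in both A. lyrata libraries, at 978.5 in replicate 2 without the dense run, and group C had it in A. thaliana.

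The first-ranked windows by group placed group C on top in A. thaliana. Its rank 1 window was on chromosome 5 from 17549773 to 17550522. Group B led with rank 3 on chromosome 2 from 12940913 to 12941506, and group A with rank 4 on chromosome 1 from 7930017 to 7930783. In replicate 1 group B held rank 1, on scaffold 4 from 2800561 to 2801211, and the same place was rank 2 in replicate 2. Group C led in replicate 1 with rank 6 on scaffold 7 from 19132308 to 19133582, which was rank 4 in replicate 2. Group A led in replicate 1 with rank 8 on scaffold 1 from 31821631 to 31822500, which was rank 17 in replicate 2. The group A leader of replicate 2, rank 5 on scaffold 2 from 13543861 to 13545119, was rank 11 in replicate 1.

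One first-ranked window had no counterpart. Rank 1 of replicate 2 was a window of 394 bp in group C, on scaffold 6 from 17177792 to 17178185, and it met no replicate 1 window of any score. It lay inside the longest stretch of group C without a replicate 1 member, from 14218054 to 17353476. Altogether 86 replicate 2 members met no replicate 1 window, 29 in group A, 32 in group B, 21 in group C and 4 on scaffold 9. The like share of all 64504 replicate 2 windows is not given here, so no excess or deficit can be read from the 86. Without these 86 the replicate 2 shares were 28.5, 32.5 and 38.1% in groups A, B and C, against 28.8, 32.8 and 37.6% with them. Coordinates are on TAIR10 for A. thaliana and on Araly1 for A. lyrata, the builds that the names of the lists give. Neighbouring genes and the DNA sequence under the windows were not analysed here.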

How the data were processed

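The 3 deposited window lists were used, with the build taken from their names, TAIR10 for A. thaliana and Araly1 for A. lyrata. Per the file headers each gives chromosome, start, end, summit, length and score. The score is the authors' deposited value per window with no formula stated, so it only ranked windows. CASAVA is named in the submitters' processing notes. The sources used here name no aligner and no window caller. The list names also hold a tag, bg, with one number for A. thaliana and another for both A. lyrata lists. Its meaning is not stated, so any difference in processing that it marks cannot be told apart from species. Windows of A. lyrata were listed per library, and the input library has no list of its own here. The 2000 windows of highest score were kept per list, ties by chromosome and start. A spacing is the distance between neighbouring member summits of 1 chromosome. Wilson intervals at 95% used SciPy 1.17.1, tables pandas 2.3.3 and figures matplotlib 3.10.9. No test across lists was run. The measures were tested on simulated data. The members, groups and named items (best rank, widest window and longest empty stretch per list and group, densest 1 Mb bin per list) were chosen with earlier results of these data known. The scaffold 2 run, the segments, the scaled limit and the rank bands were chosen after the values were seen.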

Additional observations from a re-analysis of the deposited data

How the results depend on the processing

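For each karyotype group, 4 A. lyrata minus A. thaliana differences were recomputed: the share of windows (percentage points), and the density, median spacing and median width, each relative to its own list (log2). Spread is the SD between the 2 libraries or, for shares and densities, the half-width of the A. thaliana counting interval where larger. Of 123 recomputed values 93 stayed within the spread and 30 moved further, while 29 changed sign. The 93 include 12 values for each A. lyrata library left out, which lie within the SD by construction and cannot show stability. With the top 500 windows the shares became 5.8, -2.7 and -3.9 points for groups A, B and C, against -0.20, 0.38 and -0.88, densities 0.23, -0.085 and -0.10, against -0.08, 0.05 and 0.01, spacings -0.047, 0.50 and 0.13, against 0.10, 0.13 and 0.22, and the widths of B and C -0.15 and 0.055, against 0.00 and -0.01. With the top 1000 the shares of A and C were 2.3 and -3.4 points, their densities 0.051 and -0.082, the spacings of B and C 0.24 and 0.033 and the width of B -0.029. With the top 5000 the share of B was -1.74 points and the spacings of B and C 0.37 and 0.12. Reversed ties gave spacings of 0.020 in A and 0.28 in C. Joining windows within 1000 bp gave a spacing of 0.023 in C and a width of 0.013 in B. A. lyrata windows shared by both libraries gave spacings of 0.21, 0.21 and 0.28 and a width of -0.0083 in B. Without the scaffold 2 run, a choice made after seeing the data, the spacing of A was 0.24; omitting replicate 2 windows that met no replicate 1 window was also chosen then and moved none past the spread. The causes were not tested. Leaving out 1 library leaves the other's own value, always within that SD: shares ran from -1.10 to 0.70 in A, -0.50 to 1.25 in B and -1.15 to -0.60 in C, and spacings from 0.05 to 0.15, 0.08 to 0.18 and 0.21 to 0.24. No paired analysis was possible because the A. thaliana list carries no replicate numbers. Group comparisons are limited by 1 A. thaliana list, unknown read depth, ties at the limit and lists of unequal length. The bg tag in the list names, which differs between the species, is a further limit.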
